A study of Rattus norvegicus with 8 samples.

Results

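The proteasome genes described here are those whose symbol starts with Psma, Psmb, Psmc, Psmd or Psme, without the 3 immunoproteasome genes Psmb8, Psmb9 and Psmb10. Probe sets were taken as members when the platform annotation gave them exactly 1 gene. This gave 52 probe sets of 38 genes, among 31042 probe sets that are not Affymetrix controls and 14217 genes with a probe set of their own. Psmc3ip and Psme3ip1 met the rule by their letters, although they do not encode subunits, and each held 1 value on all arrays. The other 36 genes encode subunits, activators or assembly factors, in 50 probe sets. Psma8, Psmb6, Psmb11 and Psme3 had no probe set of their own on this array.

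The data were liver expression arrays of 8 male Sprague-Dawley rats aged 7 weeks, 1 array per rat. For 2 weeks all rats ate CRF-1, a rodent chow, to which cholesterol (10 g per kg of diet) and cholic acid (5 g per kg) had been added. The diet of the L. brevis rats also held viable freeze-dried Lactobacillus brevis 119-2, a bacterium of lactic fermentation isolated from turnip, at 10 g per kg. Each diet was given to 11 rats, and 4 per diet, labelled as biological replicates, have an array. For the controls the source label mentions CRF-1 without additions, and the design text was taken as correct.

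The proteasome is the protease that degrades proteins marked with ubiquitin. Its 20S core is a barrel of 4 stacked rings: Psma genes encode the outer alpha rings, which gate the barrel, and Psmb genes the inner beta rings, where Psmb5, Psmb6 and Psmb7 carry the active sites. The 19S cap sits on the barrel's ends: a ring of ATPases (Psmc genes) unfolds the substrate and feeds it in, base subunits such as Psmd1 and Psmd2 dock ubiquitin receptors and shuttles, and the lid holds Psmd14, which removes the ubiquitin chain. Psme genes encode other activators of the barrel. Subunit genes are known to be transcribed together, with Nfe2l1 as the factor that raises them when the proteasome is inhibited.

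All levels are the deposited log2 signals, and a difference is the L. brevis mean less the control mean. Where a covariate or array weights are named, it is the diet term of that fit instead. Most values in the table cannot differ between rats: in 24719 of the 31042 probe sets the 8 arrays agreed to within 0.01 log2, which leaves 6323 varying ones (20.4%). Among the members 25 of 52 probe sets varied (48.1%), from 23 of the 38 genes. Liver identity was clear, since 9 of 10 listed hepatocyte genes were measured and their brightest probe sets had means from 13.04 to 14.55. These are whole livers, so fewer cells of a type and less RNA per cell cannot be told apart. The arrays differed in the control probe sets for the ends of the Gapdh transcript. The 5' minus 3' signal of GAPDH, which is lower where RNA is degraded or copied short, ran from -2.93 to -1.83 in control and from -2.20 to -0.68 in L. brevis rats. Endothelial markers had 7 of 8 varying probe sets of 6 genes on the lower side, with rat means of 8.59 to 9.09 in control and 8.35 to 8.56 in L. brevis livers, and 0 of the 8 passed the adjusted test. Macrophage markers had 6 of 7 varying probe sets higher, also with 0 called (rat means 8.69 to 9.16 and 8.88 to 9.27). L. brevis 2 stood apart by skeletal muscle markers: its mean over the 8 varying probe sets of that list was 9.89, against 7.92 to 8.32 in the other 7 rats. Its Acta1 signal, for skeletal muscle actin, was 12.45 against 5.08 to 5.54, and the muscle genes Tnnt3, Ckm and Tnni2 were also highest in it (8.49, 7.78 and 8.25). The 4 varying probe sets of the muscle myosin Myh1 did not set it apart so: the brightest had 11.31 in L. brevis 2 and 11.32 in control 1. The part of these cell types in the results below was not tested.

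Most varying cap probe sets had slightly lower mean signals in L. brevis livers, varying core probe sets were mixed, and no member passed the test. Of the 12 varying cap probe sets 11 were lower, with a median difference of -0.15 log2. Of the 8 varying core probe sets 5 were higher and 3 lower, with a median of 0.06. Over all 6323 varying probe sets the median was -0.02 and 53.8% were lower. The limma test, two-sided with Benjamini-Hochberg adjustment over all varying probe sets, called 0 of 25 members at an adjusted p under 0.05, where 0.0633% of all varying probe sets were called. The smallest adjusted p of a member was 0.116. An unadjusted p below 0.05 was reached by 0 higher and 5 lower members, where 10.7% of all varying probe sets were higher and 13.8% lower with such a p. The members' share of 5 in 25 lies below the 24.5% over both directions. Leaving out L. brevis 1 brought 3 members past the adjusted threshold, Psmb4 (-0.31, adjusted p = 0.0349), Psmc3 (-0.44, adjusted p = 0.0224) and Psma3 (-0.46, adjusted p = 0.0465), when 1146 of the 6323 probe sets (18.1%) were called. Array weights called these 3 and also Psmc5 and Psmd11, when 1561 probe sets (24.7%) were called. Without L. brevis 2, the rat with the muscle signal, 2 members kept an unadjusted p below 0.05, Psmb4 (-0.26) and Psma3 (-0.40), where 9.33% of all varying probe sets were lower with such a p. The counts of 5 core probe sets higher and 11 cap probe sets lower were the same without that rat, and the medians were 0.07 and -0.15.

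**Figure D1:**
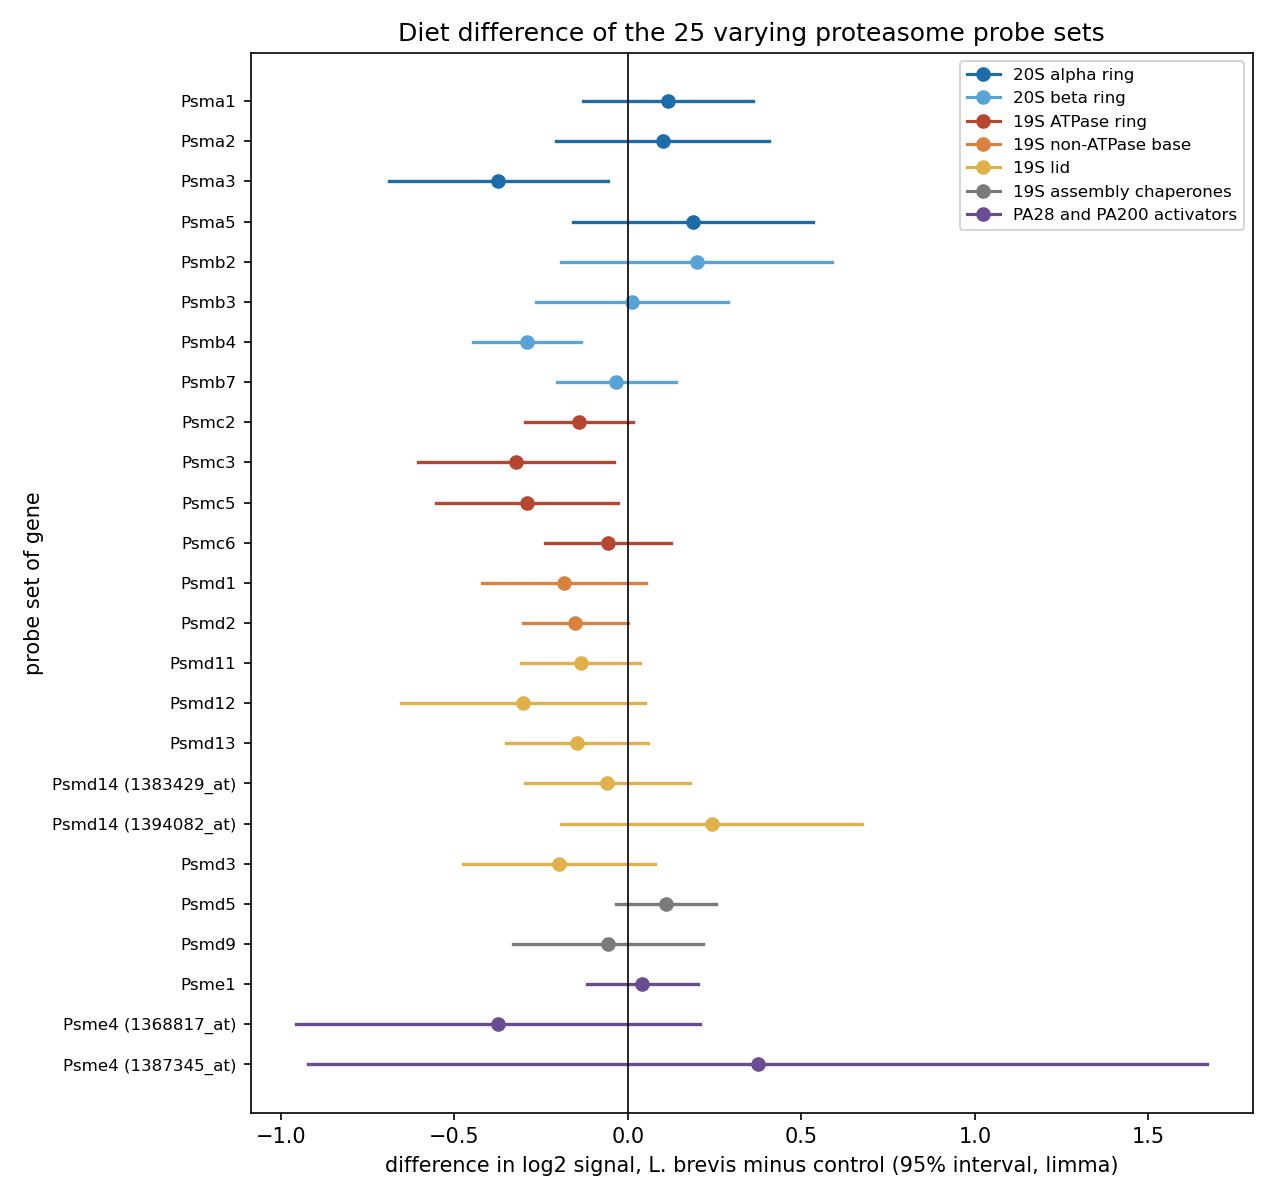
Difference in log2 signal (horizontal axis, L. brevis minus control) of the 25 varying proteasome probe sets, with points for the estimates, bars for 95% intervals from limma and colours for the part of the proteasome. The cap probe sets lie left of 0 except 1 of Psmd14, and the interval includes 0 for 6 of 8 core and 9 of 12 cap probe sets.

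Of the alpha ring, Psma1, Psma2, Psma3 and Psma5 varied. Psma3 was the one with an unadjusted p below 0.05. It had 8.52, 8.45, 8.46 and 8.26 in control 1 to 4 and 8.32, 8.12, 8.04 and 7.71 in L. brevis 1 to 4. Only L. brevis 1 lay inside the control range. The difference was -0.37 (SE 0.14, adjusted p = 0.168), 1.30-fold lower. A second probe set, which the annotation assigns to both Psma3 and its near copy Psma3l and which is therefore no member, went the other way. It had 10.13, 10.72, 10.05 and 10.41 in control and 10.48, 10.72, 10.86 and 10.80 in L. brevis rats, a difference of +0.39. These probe sets therefore disagreed, and the shared one cannot separate Psma3 from Psma3l.

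The other 3 alpha subunits were higher, none with an unadjusted p below 0.05. Psma5, shown in full after its values were seen, had 9.59, 9.98, 9.54 and 9.83 in control and 9.62, 9.87, 10.09 and 10.12 in L. brevis rats, a difference of +0.19 (SE 0.15). Psma1 differed by +0.12 (SE 0.10) and Psma2 by +0.10 (SE 0.13). Control 1 and 3 and L. brevis 1 had the lowest Psma5 signals, so the low rats were of both diets. Psma4, Psma6 and Psma7 held 9.95, 11.10 and 10.28 on all 8 arrays.

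In the beta ring was the member with the smallest p, Psmb4, a beta subunit without an active site. Its signals were 11.20, 11.29, 11.10 and 11.17 in control and 10.96, 10.79, 10.93 and 10.89 in L. brevis rats. Every L. brevis rat lay below every control rat, and the spread within each diet was small (11.19 ± 0.08 against 10.90 ± 0.08, SD, n = 4 each). The difference was -0.29 (SE 0.07, adjusted p = 0.116), 1.22-fold lower. Such a separation with L. brevis below was found in 3 of 25 members, against 7.09% of all varying probe sets, and with L. brevis above in 0 members, against 4.21%.

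Of the catalytic subunits Psmb7, which carries the trypsin-like site, was the one with varying signal. It had 8.43, 8.59, 8.37 and 8.34 in control and 8.43, 8.37, 8.40 and 8.40 in L. brevis rats. All L. brevis values lay inside the control range, and the 95% interval of the difference of -0.03 ran from -0.21 to 0.14. Psmb5, the chymotrypsin-like subunit, held 10.46 at its brightest probe set and 6.20 and 6.43 at its others, so no difference could be measured for it. The probe set of Psmb6 is shared with Psmb6l1 and held 9.22. Psmb2 and Psmb3, beta subunits without an active site, differed by +0.20 (SE 0.17) and +0.01 (SE 0.12), and Psmb1 held 10.56.

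All 4 varying ATPase genes of the cap were lower, 2 with an unadjusted p below 0.05. Over all varying probe sets 13.8% were lower with such a p. Psmc3 had 10.26, 10.35, 10.22 and 10.26 in control and 10.30, 9.82, 9.90 and 9.79 in L. brevis rats. L. brevis 1 had the level of the controls, while the other L. brevis rats lay well below them. The difference was -0.32 (SE 0.12, adjusted p = 0.171), 1.25-fold lower. Psmc5 had 9.28, 9.61, 9.47 and 9.37 in control and 9.34, 8.92, 9.16 and 9.14 in L. brevis rats, again with L. brevis 1 as the rat inside the control range. Its difference was -0.29 (SE 0.11, adjusted p = 0.177), and -0.22 (SE 0.11) without L. brevis 2, whose mean over the ATPase genes was the lowest of the 8 rats.

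Psmc2, shown because its groups did not overlap, had 10.54, 10.72, 10.50 and 10.56 in control and 10.44, 10.41, 10.47 and 10.45 in L. brevis rats. The difference was small at -0.14 (SE 0.07, adjusted p = 0.230). Psmc6 differed by -0.06 at its varying probe set and held 9.03 and 9.21 at its others. Psmc1 held 9.29, and Psmc4 held 9.57 and 6.45.

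Promoters are shown for the 3 subunit genes with the smallest p, Psmb4, Psma3 and Psmc3, so that the lower members can be read beside their regulatory sequence. They come from RefSeq on GRCr8, which lists 32 of the 36 subunit genes, and run from 250 bases before to 50 bases after the start site, 5′ to 3′ on the gene's strand. The regions are chr2:185134512-185134811 on the minus strand for Psmb4, chr6:95219499-95219798 on the plus strand for Psma3 and chr3:97487393-97487692 on the plus strand for Psmc3. Capitals mark TGACNNNGC, the core of the antioxidant response element to which Nfe2l1 and Nfe2l2 bind with small Maf proteins, and CCAAT, each searched on both strands; no match of one overlapped the other in these 3 sequences.
Psmb4: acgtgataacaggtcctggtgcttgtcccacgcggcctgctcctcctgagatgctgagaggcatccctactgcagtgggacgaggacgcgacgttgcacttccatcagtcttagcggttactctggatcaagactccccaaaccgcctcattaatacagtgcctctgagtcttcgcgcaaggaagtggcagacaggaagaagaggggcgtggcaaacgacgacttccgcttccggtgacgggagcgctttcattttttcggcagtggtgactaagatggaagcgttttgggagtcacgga
Psma3: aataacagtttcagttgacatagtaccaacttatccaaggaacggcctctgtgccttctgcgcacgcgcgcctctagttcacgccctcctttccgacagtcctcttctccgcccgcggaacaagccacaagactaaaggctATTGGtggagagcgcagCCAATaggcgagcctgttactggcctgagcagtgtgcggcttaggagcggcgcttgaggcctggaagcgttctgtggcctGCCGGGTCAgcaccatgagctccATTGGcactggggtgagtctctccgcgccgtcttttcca
Psmc3: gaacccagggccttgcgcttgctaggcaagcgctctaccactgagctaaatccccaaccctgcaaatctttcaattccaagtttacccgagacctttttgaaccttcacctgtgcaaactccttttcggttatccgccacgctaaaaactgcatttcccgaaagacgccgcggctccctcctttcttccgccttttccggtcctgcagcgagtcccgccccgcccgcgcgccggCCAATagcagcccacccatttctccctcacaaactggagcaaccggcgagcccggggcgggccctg
Psmb4 held neither motif in this window. Psma3 held TGACNNNGC on the opposite strand at position -12 and CCAAT 3 times, and Psmc3 held CCAAT once, at position -16, where positions give the first letter of the match relative to the start base as 0. Among all 33469 promoters of this length 12.1% held TGACNNNGC and 37.5% held CCAAT. Of the 32 subunit promoters 7 held the first (21.9%) and 16 the second (50%). These are matches of letters and no measure of binding.

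The base subunits Psmd1 and Psmd2, large scaffold proteins of the cap, were both lower on average. Psmd2 had 9.99, 10.05, 10.03 and 9.99 in control and 9.84, 9.76, 9.95 and 9.91 in L. brevis rats. These groups did not overlap either, and the difference was -0.15 (SE 0.06, adjusted p = 0.203), or -0.12 (SE 0.07) without L. brevis 2, the lowest rat. Psmd1 differed by -0.18 (SE 0.10). The ubiquitin receptor gene Psmd4 held 8.63.

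**Figure D2:**
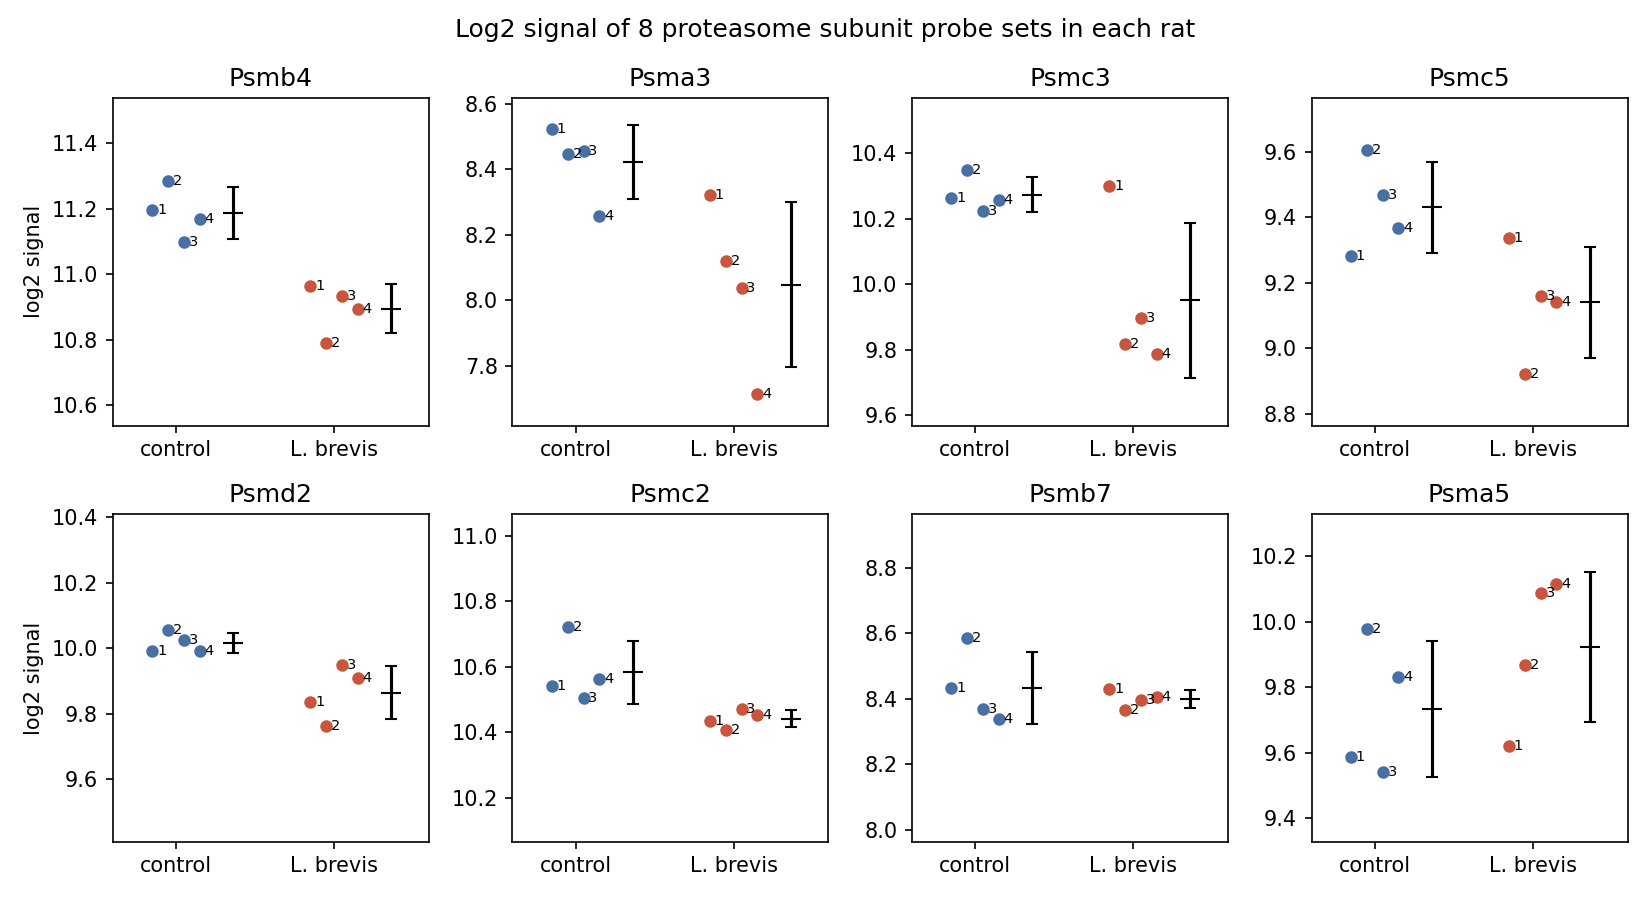
Log2 signal (vertical axis, each panel spanning 1 log2 unit) of 8 proteasome probe sets in control and L. brevis rats, with points numbered by replicate and bars for mean ± SD (n = 4). Psmb4, Psmd2 and Psmc2 do not overlap between diets, L. brevis 1 stands with the controls for Psmc3, and the diets overlap for Psma5.

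In the lid, which cleaves ubiquitin chains from the substrate, 5 varying probe sets were lower and 1 higher, none with an unadjusted p below 0.05. Psmd12 differed by -0.30 (SE 0.15), Psmd3 by -0.20 (SE 0.12), Psmd13 by -0.15 (SE 0.09) and Psmd11 by -0.14 (SE 0.07). Psmd14, the deubiquitinase, had a varying probe set in each direction, at +0.24 (SE 0.19) and -0.06 (SE 0.10). Its signals at the first were 7.48, 7.91, 7.30 and 7.63 in control and 7.41, 7.80, 7.95 and 8.12 in L. brevis rats, with L. brevis 1 among the lowest. Psmd6 and Psmd8 held 9.65 and 9.39, Psmd7 held 8.51 and 9.41, Psmd11 held 9.94 and 6.33 at its other probe sets and Psmd14 held 6.52.

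Of the Psmd genes that encode assembly chaperones of the cap 2 varied, 1 in each direction, and 0 had an unadjusted p below 0.05. Psmd5 differed by +0.11 (SE 0.06) and Psmd9 by -0.06 (SE 0.12), with 6.78 on all arrays at the other Psmd9 probe set, and Psmd10 held 8.19. Among the activators, Psme1, a subunit of the PA28 cap known from antigen processing, differed by +0.04 (95% interval -0.12 to 0.20), and Psme2, its partner, held 9.46. The PA200 gene Psme4 had the widest spread of all members and its probe sets disagreed. The first had 9.52, 9.65, 10.65 and 10.30 in control and 9.59, 9.61, 9.71 and 9.71 in L. brevis rats (difference -0.37, SE 0.25). At the second the signals were 7.21, 8.01, 9.04 and 9.21 in control and 7.57, 8.98, 9.08 and 9.33 in L. brevis rats (difference +0.37, SE 0.55). Control 3 and 4 were the highest controls at both. At the first every L. brevis rat lay below these, and at the second L. brevis 2 to 4 lay near them. The remaining Psme1 and Psme4 probe sets held 6.19 and 8.09.

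Core and cap were set against each other in each rat, after each probe set was centred on its mean over the 8 rats. The core mean minus the cap mean was -0.11, 0.01, -0.16 and -0.004 log2 in control 1 to 4 and -0.06, 0.08, 0.14 and 0.11 in L. brevis 1 to 4. L. brevis 2 to 4 were above every control, and L. brevis 1 lay among the controls. The diets differed by 0.14 (-0.07 ± 0.08 against 0.07 ± 0.09, SD, n = 4 each). The cap mean differed by -0.15 and the core mean by -0.01. By rat the cap mean was 0.07, 0.20, 0.02 and -0.001 in control 1 to 4 and -0.03, -0.11, -0.06 and -0.09 in L. brevis 1 to 4. No test was made of these means, since the members were chosen with results of these data known.

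The GAPDH 5' minus 3' signal moved with the core to cap contrast. It was -2.89, -1.83, -2.93 and -1.98 in control 1 to 4 and -2.20, -1.30, -0.94 and -0.68 in L. brevis 1 to 4. Ordered by it, the rats stood in the same order as by core minus cap, with L. brevis 3 and 4 exchanged. The GAPDH signal itself differed between the diets (-2.41 ± 0.59 in control against -1.28 ± 0.66 in L. brevis rats, SD, n = 4 each). A fit with it as a covariate therefore cannot tell its part from that of the diet. With this signal as a covariate the contrast between the diets was -0.01, and 0 of 8 core probe sets were higher, with a median of -0.15. The cap stayed on the lower side, with 10 of 12 probe sets lower and a median of -0.19. The beta-actin 5' minus 3' signal also differed between the diets (-3.47 ± 0.40 in control against -2.61 ± 0.67 in L. brevis rats). With beta-actin as the covariate instead, the contrast was 0.03, with 0 of 8 core probe sets higher and 10 of 12 cap probe sets lower. Among core members Psma5 was at -0.20 instead of +0.19 and Psmb2 at -0.18 instead of +0.20 with the GAPDH covariate. Psmb4 kept its difference (-0.31, SE 0.10, adjusted p = 0.572, where 7.86% of the 6323 probe sets were with an unadjusted p below 0.05), whereas Psma3 was at -0.10 (SE 0.14), Psmc3 at -0.15 (SE 0.15) and Psmd3 at +0.06. Psmc5, Psmd11, Psmd12 and Psmd13 also moved toward 0. Further below 0 than without the covariate were Psmc2 (-0.22), Psmd1 (-0.29), Psmd2 (-0.20) and 1 Psmd14 probe set (-0.27). In this fit 4 members were lower with an unadjusted p below 0.05, Psmb4, Psmc2, Psma5 and that Psmd14 probe set, and 0 higher. Over all varying probe sets 4.37% were lower with such a p.

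**Figure D3:**
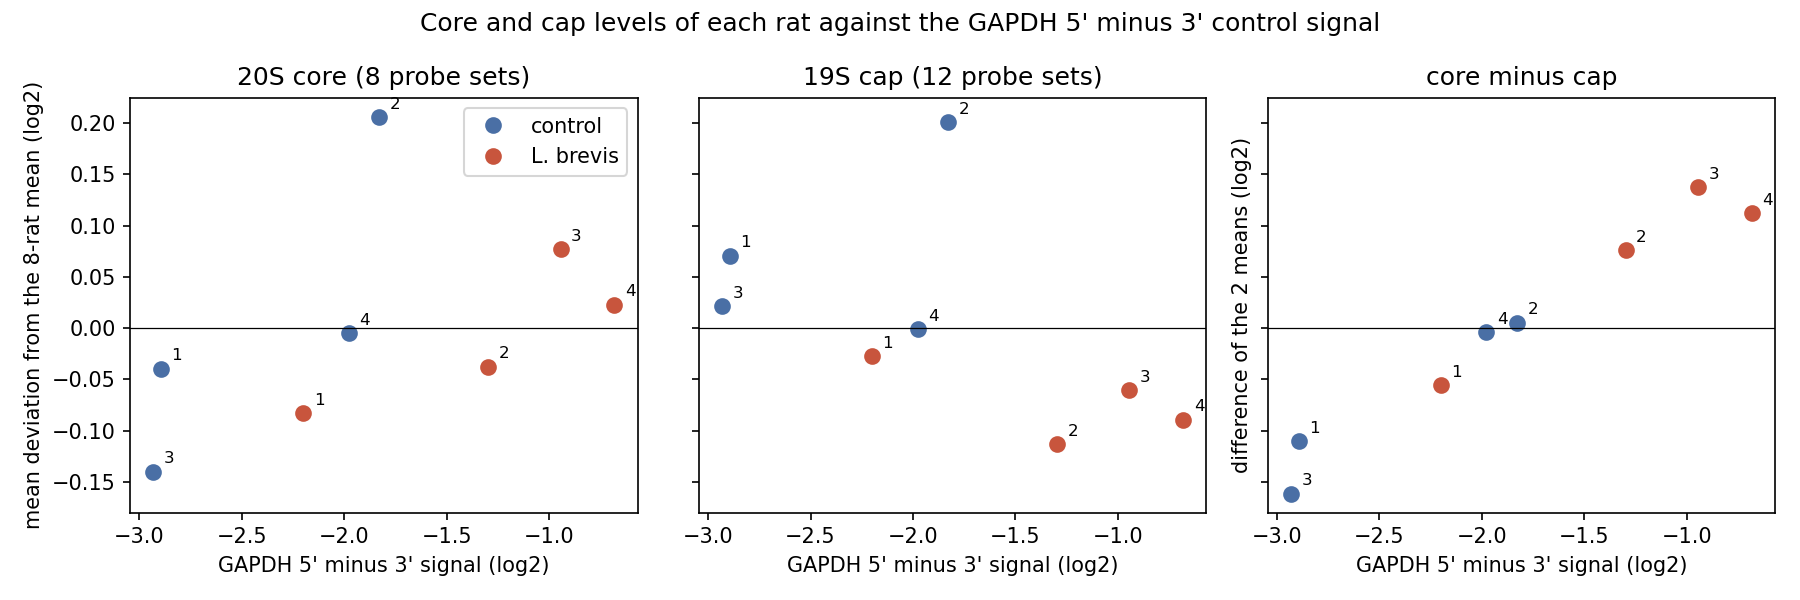
Mean deviation of the 8 core and 12 cap probe sets from their mean over 8 rats, and core minus cap (vertical axes, log2), against the GAPDH 5' minus 3' signal (horizontal axis, log2), with points numbered by replicate. Core minus cap goes from -0.16 in control 3 to 0.14 in L. brevis 3, and in that panel L. brevis 1 lies among the controls on both axes. In the cap panel L. brevis 1 (-0.03) lies below the lowest control, control 4 (-0.001).

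**Figure D4:**
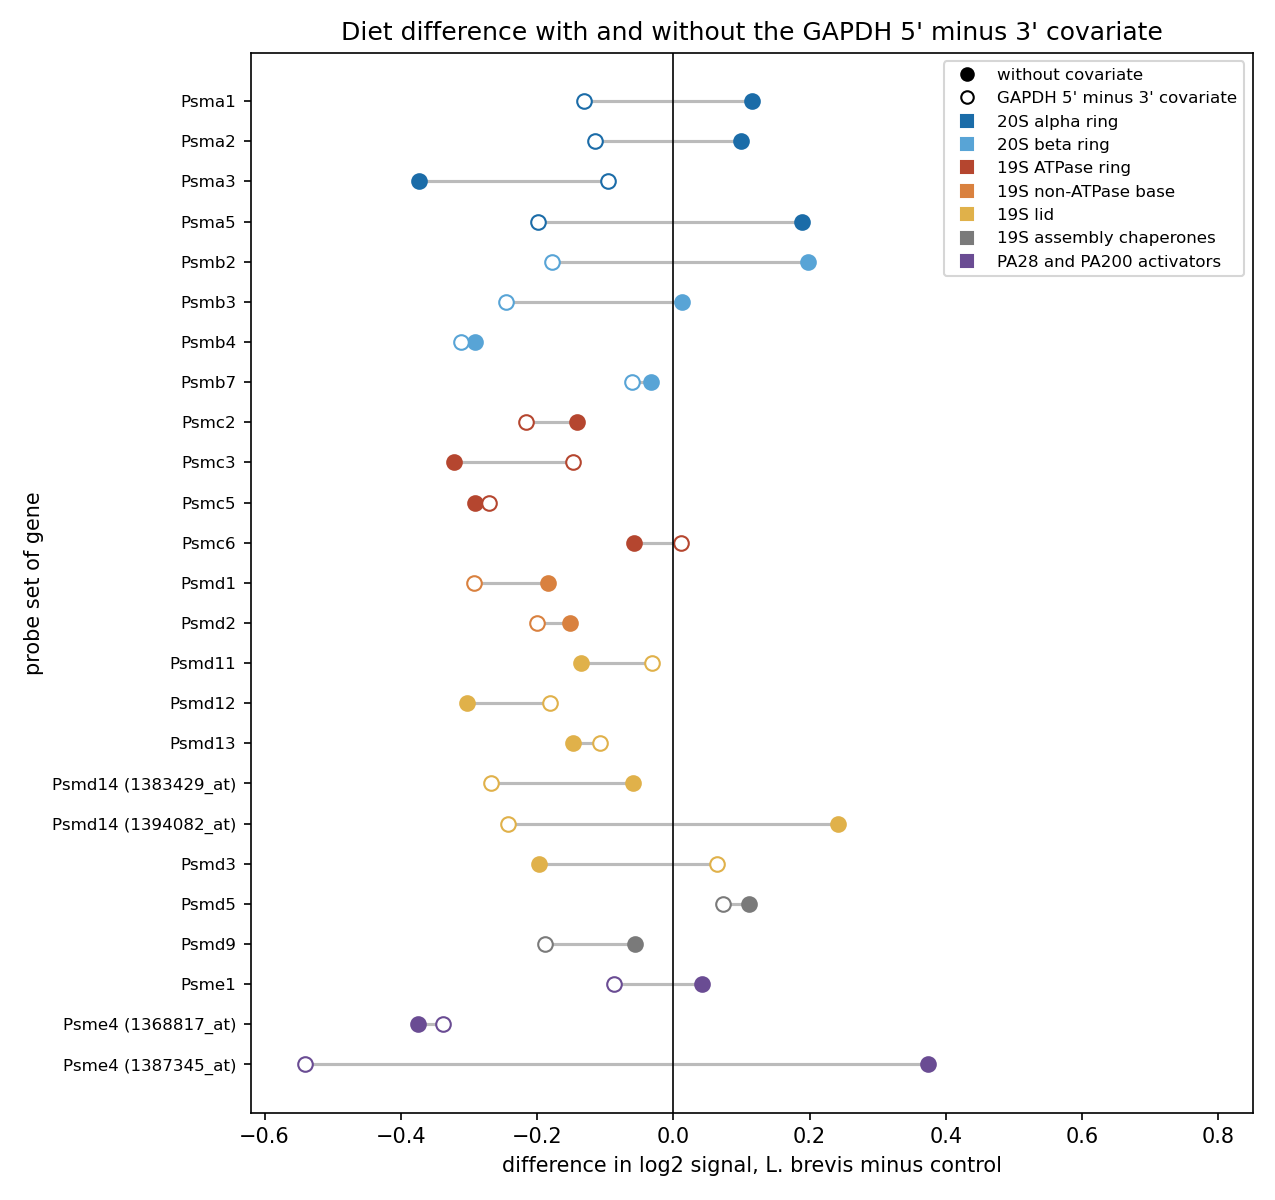
Diet difference (horizontal axis, log2, L. brevis minus control) of the 25 varying probe sets without (filled) and with (open) the GAPDH 5' minus 3' covariate. All 8 core probe sets are left of 0 with the covariate, and Psmb4 and Psmc5 move little.

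Of the 20 varying probe sets of genes around the proteasome, immunoproteasome included, 0 were called in the same test. Array weights called 8 of the 20, 1 each of Ecpas, Txnl1, Ubqln4, Uba6, Nfe2l1, Rad23b, Zfand2a and Ubxn4, and leaving out L. brevis 1 called 6, in fits where 24.7% and 18.1% of all varying probe sets were called. In the list of Nfe2l1, its processing and its partners 4 of 12 probe sets varied, 2 in each direction. Nfe2l1 itself had 8.72, 8.58, 8.93 and 8.62 in control and 8.63, 8.40, 8.38 and 8.40 in L. brevis rats. L. brevis 1 had the level of the controls here too. The difference was -0.26 (SE 0.10, adjusted p = 0.183), and -0.04 (SE 0.10) with the GAPDH covariate. Nfe2l2 and Mafg differed by +0.19 and +0.10, and Ngly1, which removes sugars from Nfe2l1, by -0.001.

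Of the receptors, shuttles and deubiquitinases that bind the proteasome 8 of 29 probe sets varied, 3 higher and 5 lower. An unadjusted p below 0.05 was reached by 1 of the higher and 3 of the lower ones. Over all varying probe sets 10.7% were higher and 13.8% lower with such a p. Ecpas, an adaptor that holds cap and core together, had 10.22, 10.11, 10.28 and 10.11 in control and 9.94, 9.84, 9.63 and 9.63 in L. brevis rats. The groups did not overlap, with L. brevis below, as in 7.09% of all varying probe sets. The Ecpas difference was -0.42 (SE 0.09, adjusted p = 0.116), and -0.21 with the GAPDH covariate. Txnl1, a thioredoxin-like protein bound to the cap, did not overlap either and differed by -0.44 (SE 0.11, adjusted p = 0.125). With the covariate Txnl1 was at -0.35. Ubqln4, a shuttle of ubiquitinated proteins, differed by -0.42 (SE 0.12, adjusted p = 0.136), and by -0.17 (SE 0.12) with the covariate. The higher one was Rad23b, also a shuttle, added after its values were seen. It had 6.09, 6.51, 6.23 and 6.56 in control and 6.31, 7.10, 7.19 and 7.53 in L. brevis rats. L. brevis 1 lay among the controls and the other L. brevis rats above them. The difference was +0.69 (SE 0.26, adjusted p = 0.171), and +0.02 (SE 0.15) with the covariate. The mean of this Rad23b probe set, 6.69, lay near the median level of all probe sets (6.63). The other varying Rad23b probe set, brighter with a mean of 11.03, differed by +0.15 (SE 0.10), or by -0.07 with the covariate.

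Among ubiquitin and E1 genes 1 of 5 probe sets varied, that of the E1 enzyme gene Uba6, which had 6.02, 6.23, 6.18 and 6.20 in control and 6.23, 6.51, 6.67 and 6.58 in L. brevis rats. The difference was +0.34 (SE 0.10, adjusted p = 0.136), or +0.12 with the GAPDH covariate. The mean of this probe set, 6.33, lay below the median level of all probe sets (6.63), and the brightest Uba6 probe set held 7.98. Of the cofactors of the unfoldase p97 4 of 14 probe sets varied, 2 in each direction. Both varying probe sets of Ubxn4 were higher with an unadjusted p below 0.05, as were 10.7% of all varying probe sets. Their means were 8.31 and 7.56, and the brightest Ubxn4 probe set held 10.34 on all arrays. The Ubxn4 differences were +0.77 (SE 0.27, adjusted p = 0.162) and +0.49 (SE 0.21, adjusted p = 0.204). With the GAPDH covariate these were +0.44 and -0.06. Of 6 assembly and inhibitor genes Psmf1, which blocks the barrel, was the one that varied (-0.26, SE 0.13). Of the immunoproteasome genes, left out by the rule, Psmb8 differed by +0.39 (SE 0.22) and Psmb9 by -0.07 (SE 0.13), neither with an unadjusted p below 0.05, and Psmb10 held 7.95. With the GAPDH covariate Psmb8 was at +0.004 and Psmb9 at -0.23.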

How the data were processed

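Deposited values are the authors' normalized log2 signals, 1 per probe set and array. How they summarised and normalized them is not stated here. Per the labels' protocols, Trizol-extracted and column-purified liver RNA was labelled with biotin through a 3' in vitro transcription kit. The table had 31099 probe sets, and its 57 Affymetrix controls entered no fit. The platform annotation gave 20826 of the rest 1 gene symbol, 436 several and 9780 none, and symbols were updated through gene identifiers. Probe sets with a range above 0.01 log2 over 8 arrays were called varying.

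The diet comparison was fitted to the 6323 varying probe sets by lmFit and trended eBayes (limma 3.58.1, R 4.3.3). Two-sided p values were adjusted after Benjamini and Hochberg and called below 0.05. A check on simulated data recovered 71% of 200 probe sets shifted by 1 log2 and 91% of 200 shifted by 2 log2. Shifts as small as the differences of the members were not simulated. The fit to all 31042 was an alternative, since probe sets with 1 value hold no measured difference but enter the ranks. The other alternatives were a range above 0.1 log2, probe sets above the median level, quantile normalization, array median centring, a replicate block, GAPDH and beta-actin 5' minus 3' covariates, array weights, no trend, 1 probe set per gene and arrays left out. The number of arrays limits the precision; background flags were not used here. Core means alpha and beta ring genes; cap means Psmc and Psmd genes without the chaperones Psmd5, Psmd9 and Psmd10. Members, lists and tests were chosen with earlier results of these data known. All rats' values are given for members with an unadjusted p below 0.05 and for catalytic subunits, and other genes shown in full are named as such. Of the surrounding lists, genes at that threshold are named, at most 3 a list.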

Additional observations from a re-analysis of the deposited data

Results flagged for a closer look

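Nfe2l1 in L. brevis rats met the test for a single array apart from the others of its diet. L. brevis 1 had 8.63, while the next highest L. brevis rat had 8.40, and the gap was 0.921 of the diet's whole range, above Dixon's 95% critical value. Skeletal muscle markers gave the same for L. brevis 2: their rat mean was 9.89, with 8.14 as the next highest, Acta1 was 12.45, with 5.48 next, and Tnnt3, a muscle troponin, was 8.49, with 5.92 next. Among controls, Tnnt3 at 6.12 in control 4 and 1 probe set of Myh1, a muscle myosin, at 9.96 in control 2 also stood apart. No other member, named gene or rat mean did so among 106 groups of 4 examined, and chance alone gives about 1 in 20; the muscle markers were added to these groups after their values were seen.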

How the results depend on the processing

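The 21 alternatives gave 523 differences for the 25 varying members; 474 kept their direction and stayed short of the adjusted threshold, 41 had the other sign and 8 passed it, and 12 members never changed sign. The cap median moved by less than the spread between rats under each of the 21, from -0.18 to -0.13 with single arrays left out. The core median moved by more than its spread between rats (0.11) with the GAPDH covariate (-0.15), the beta-actin covariate (-0.10) and without control 1 and 3 (-0.060). With single arrays left out it stayed within that spread, at -0.0059 to 0.12. Core minus cap was -0.010 and 0.027 with these covariates and 0.10 to 0.18 with single arrays left out. The cause was not tested. Array weights gave 5 called members; leaving out single arrays gave 0 to 3. Of the 25 members, those lower with an unadjusted p below 0.05 were 8 with array weights, where 22.5% of all varying probe sets were so, 3 with median centring (11.4%), the beta-actin covariate (4.93%) or without L. brevis 3 and 4 (5.91%), 1 without control 1 and 3 (5.19%), and 1 to 6 with single arrays left out (9.03% to 20.6%). Higher ones were 1 in the fit to all probe sets (5.27%) and 1 with array weights (19.9%), Psmd5 in both. The beta-actin fit and the pairs left out were chosen after seeing the data.

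Other signs were found with the GAPDH covariate for Psmc6 (0.011), Psmd14 (-0.24), Psmd3 (0.065), Psma1 (-0.13), Psma2 (-0.11), Psma5 (-0.20), Psmb2 (-0.18), Psmb3 (-0.25), Psme1 (-0.087), Psme4 (-0.54), Ubxn4 (-0.056), Rad23b (-0.071) and the Psma3 and Psma3l probe set (-0.0069). With beta-actin they were Psmc6 (0.023), Psmd14 (-0.16), Psmd3 (0.025), Psma1 (-0.083), Psma2 (-0.042), Psma5 (-0.12), Psmb2 (-0.084), Psmb3 (-0.18), Psme1 (-0.059), Psme4 (-0.48) and Rad23b (-0.041). Quantile normalization gave them for Psmb3 (-0.058), Psmb7 (0.0028) and Psme1 (-0.057), median centring for Psmb7 (0.0041), and array weights for Psmd9 (0.082) and Psmd14 (0.0029). Without L. brevis 3 and 4 they were Psma1 (-0.0076), Psmb3 (-0.092), Psme1 (-0.025) and Psme4 (-0.091), and without control 1 and 3 Psma2 (-0.057), Psmb3 (-0.14) and Psme1 (-0.0061). With single arrays left out the range crossed 0 for Psmb3 (-0.062 to 0.095), Psme4 (-0.013 to 0.76), Psmb7 (-0.064 to 0.019), Psmd9 (-0.14 to 0.016), Psmd14 (-0.10 to 0.0087) and Psmb9 (-0.17 to 0.028).

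The labels tie the replicate numbers to no shared litter or day, and the rats were treated as unpaired. Over varying probe sets, deviations of same-numbered rats correlated at 0.36, 0.20, 0.08 and 0.38. L. brevis 1, 2 and 4 each correlated most with their own number, and L. brevis 3 more with control 4 (0.40). These values do not decide whether the numbers pair the rats. With a replicate block 31.2% of all varying probe sets had an unadjusted p below 0.05, against 24.5% without it. The block gave 0 called members and 4 with an unadjusted p below 0.05, all lower, where 17.1% of all varying probe sets were so. These were Psma3, Psmb4, Psmc3 and, with the block but not without it, Psmd12; Psmc5 and Psmd2 were not among them.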
